A study of Arabidopsis thaliana with 18 samples.

Results

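The comparison set etr1-1 against the wild type Col-0 in whole Arabidopsis thaliana plants aged 14 days, 1 h after a spray of GA4. Its members are 6 of the 18 arrays of the series, 3 per genotype, paired by the replicate number in their source names, and it is described across all 22746 probe sets that are not controls. The etr1-1 line carries a dominant allele of an ethylene receptor gene that leaves plants insensitive to ethylene, and the labels give its ecotype as Col. Both genotypes grew on MS/2 medium with 1% sucrose at 22 C, 70% relative humidity and 16 h of light a day, and both were sprayed with GA4 dissolved in water. A second pair of groups, etr1-1 and Col-0 at 1 h after water, also had 3 arrays each. At 0 h after water and at 30 min and 3 h after GA4 there was 1 array per genotype. Since etr1-1 differs from the wild type by a point mutation, the level of the receptor transcript would not check the labels and is not used here. Nothing in the labels says that replicates were grown apart, so p-values here reflect only how much these arrays varied, some of which may be technical.

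Ethylene is a gaseous plant hormone whose receptors repress the response until ethylene binds them. A receptor that cannot bind ethylene keeps the repression on, and the targets of the transcription factor EIN3 stay low. GA4 is a bioactive gibberellin. It binds the GID1 receptors, which leads to the breakdown of the DELLA repressors of growth, and ethylene is known to act on growth in part through the same repressors. The title of the series asks how both hormones interact in transcription, and this comparison asks how the genotypes differed once GA4 had been given.

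Each array had been scaled to a common mean before deposit (a mean of 100.007 to 100.008 intensity units after trimming 2% at each end), and the median intensity was 45.3 to 48.8 units in etr1-1 and 46.7 to 48.75 units in Col-0. The 3 markers of root cells that were measured by name summed to 2724 to 3036 units in etr1-1 and 2385 to 2761 units in Col-0, and the 12 nuclear-encoded photosynthesis genes to 22294 to 23482 and 18502 to 23855 units, with none of these genes at 0. Markers of green tissue were therefore present on all 6 arrays. Of the root markers, EXPA7 read 43.1 to 68 units and EXPA18 41.2 to 58.8 units, near the array medians. Most of the root sum thus came from 1 other gene. The log2 ratio of the 3' to the 5' control probe sets, a measure of RNA quality, was 0.37 to 0.44 against 0.21 to 1.16 for GAPDH, 1.68 to 2.53 against 1.42 to 2.82 for actin and 1.51 to 1.69 against 1.18 to 1.70 for ubiquitin, in etr1-1 and Col-0 in turn. The ranges of the genotypes overlapped for all 3 control transcripts, but 1 array stood apart within its group. Col-0 replicate 1 after GA4 had the GAPDH ratio of 1.16, against 0.26 and 0.21 in the other Col-0 arrays and at most 0.69 in the rest of the 18 arrays, and its actin ratio of 2.82 was the highest of the 6.

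At 1 h after GA4 the genotypes differed in a small share of the transcripts. Of 15922 probe sets tested, 145 were higher and 154 lower in etr1-1, which is 1.88% called in either direction (0.911% higher and 0.967% lower), by limma with the replicate number as a block and a Benjamini-Hochberg adjusted p under 0.05. Without the block, with the same estimates but the spread between replicates counted in full, 32 passed (0.201%), with 10 higher (0.0628%) and 22 lower (0.138%), and all 32 were among the 299. Without the replicate 1 arrays, which include the Col-0 array with the high GAPDH ratio, 37 were higher and 68 lower in a fit with fewer degrees of freedom, and leaving out replicate 2 or 3 gave 68 and 72 or 34 and 47. Genes that passed in both fits are named as such below, and the others rest on the comparison within replicate pairs. Differences are given as etr1-1 minus Col-0 on the scale log2(intensity + 16), followed by ± their standard error from the fit with the block. Folds are on the same scale, which understates the change of dim probe sets. The median absolute difference was 0.63 over the called probe sets and 0.12 over all tested, and a change of more than 2-fold was reached by 24 of the higher and 26 of the lower probe sets.

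**Figure D1:**
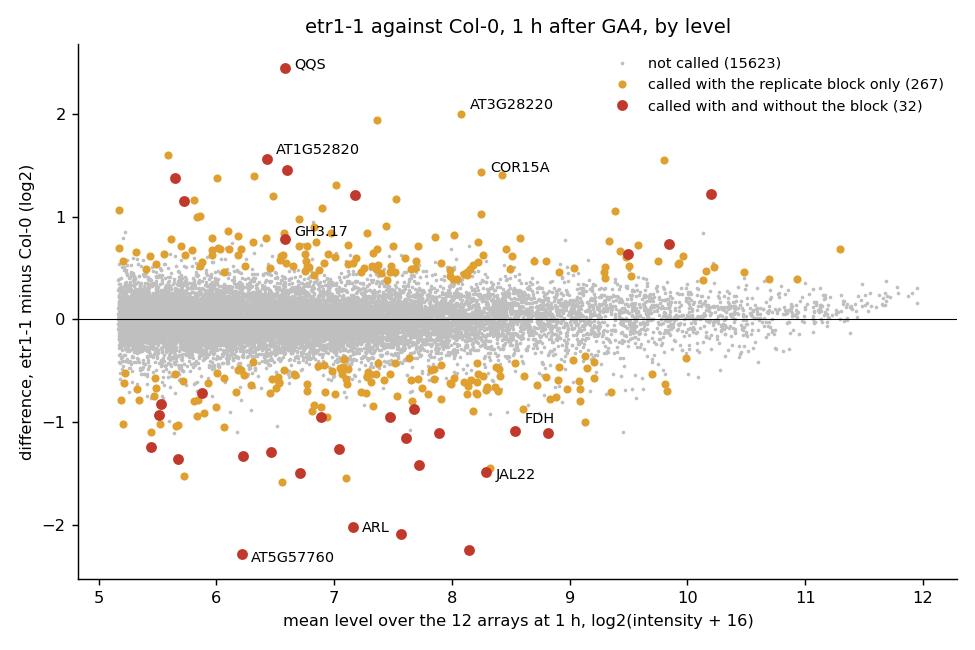
Difference between the genotypes (etr1-1 minus Col-0, log2, vertical axis) against the mean level over the 12 arrays at 1 h (log2 of intensity + 16, horizontal axis) for all 15922 probe sets tested, with the 267 called with the replicate block only in orange and the 32 called in both fits in red. Called probe sets lie on both sides of 0 over most of the range of levels, and QQS at 2.44 and AT5G57760 at -2.29 stand farthest out among those with a gene name.

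All 299 had the same sign in the 3 replicate pairs, which a choice by a test on these same pairs favours. In 242 of the 299 the 3 etr1-1 arrays did not overlap the 3 Col-0 arrays. Such a gap between the groups was found in 12.0% of all tested probe sets (5.99% with etr1-1 above and 6.00% with etr1-1 below). In the other 57 the groups overlapped although each pair moved the same way. Calls were fewer among dim probe sets: with the tested probe sets split by level into 3 equal parts, 1.11% of the dimmest, 1.56% of the middle and 2.96% of the brightest were called. A gene name was given for 147 of the 299, and 119 of these are known in the tables used here only by a locus identifier, for which no function is stated. The 28 called genes with a symbol of their own (15 higher, 13 lower) are all described below, and 11 of them were picked for having a symbol, after their values were seen.

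QQS showed the largest rise. This orphan gene, found only in Arabidopsis, is known to affect the starch content of leaves. Its intensity was 209.7, 208 and 187 units in etr1-1 replicates 1 to 3 and 33.9, 22.7 and 17.2 units in Col-0. Every etr1-1 array was far above every Col-0 array. The difference was 2.44 ± 0.22 (5.43-fold, adjusted p = 4.11e-05, and 0.000349 without the block). The 3 pairs gave 2.18, 2.53 and 2.61, so the size of the rise varied little between replicates after GA4. The pairs after water were less alike, at 1.63, 3.05 and 2.65. After water the difference was 2.44 ± 0.22, and the change between sprays did not pass its test (change -0.0006 ± 0.31, unadjusted p = 0.998).

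Among the other rises that passed in both fits, GH3.17 encodes an enzyme that joins auxin to glutamate and so takes it out of use. It measured 103, 106 and 121 units in etr1-1 and 60.8, 52.5 and 58.0 units in Col-0, with no overlap. Its difference was 0.78 ± 0.11 (adjusted p = 0.00251, and 0.0424 without the block). AT1G52820 gave 150.3, 162 and 114 units against 39.9, 43.5 and 29.5 units. Its pairs were the most alike of the large rises, at 1.57, 1.58 and 1.51, around a difference of 1.56 ± 0.14 (adjusted p = 3.14e-05). AT1G52800, with 1 gene between them, was higher as well, by 0.78 ± 0.17. AT1G19960 (1.21 ± 0.15), AT2G19970 (1.37 ± 0.20) and AT2G21045 (0.63 ± 0.10) complete the 6 named rises that passed both ways, the last being smaller than the 20 largest and named for passing in both fits.

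Defence peptides and a defence-related glutaredoxin were among the other rises. THI2.2 encodes a thionin, a small antimicrobial peptide. It read 271, 368 and 318 units in etr1-1 and 126, 206 and 203 units in Col-0, the lowest etr1-1 array lying above the highest Col-0 array. The difference was 0.80 ± 0.16 (adjusted p = 0.0224, and 0.233 without the block). PDF1.4 encodes a defensin-like peptide, at 51.3, 67.6 and 42.1 units against 27.7, 40.7 and 16.5 units. Its groups just failed to overlap, and each replicate pair rose, by 0.62, 0.56 and 0.84 (mean 0.67 ± 0.12, adjusted p = 0.0121). In the list of defensins, thionins and lipid-transfer proteins these were 2 of 6 tested genes, none was lower, and the list's median was 0.26 beside 0.0017 over the 8682 genes tested by name, of which 1.69% were called. PDF1.2b, a defensin gene known to need both ethylene and jasmonate, was at -0.37 and did not pass (adjusted p = 0.458). GRX480 encodes a glutaredoxin known to be induced by salicylic acid. It was measured at 93.9, 153 and 102 units against 63.9, 80.6 and 68.9 units, without overlap, and differed by 0.58 ± 0.12 (adjusted p = 0.0257, and 0.468 without the block). It was the only call among 7 genes of the salicylic acid and defence list. The means of all 7 were above 0 (median 0.16), as were 50.4% of the named genes tested. In WRKY47, WRKY20, WRKY22, WRKY6 and SAG101 of this list the replicate pairs differed in sign.

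COR15A and AT3G28220 showed how much some genes varied between replicates. COR15A encodes a cold-induced protein that protects chloroplast membranes in freezing. Its intensity was 515, 918 and 246 units in etr1-1 and 232, 473 and 38.6 units in Col-0. The groups overlapped, since replicate 2 was high and replicate 3 low in both genotypes, yet etr1-1 was above its own Col-0 partner each time. The pairs gave 1.10, 0.93 and 2.26, with a mean of 1.43 ± 0.27 (adjusted p = 0.0143), and without the block the adjusted p was 0.77. Of the 6 genes tested in the abscisic acid and cold response list it was the only call, and COR15B (0.37), LTI30 (0.10) and COR47 (0.05) did not pass. AT3G28220 had the same shape, with 635, 700 and 348 units against 177, 366 and 20.4 units. Its pairs ranged from 0.90 to 3.32 around 1.99 ± 0.36 (adjusted p = 0.013, and 0.403 without the block).

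The remaining rises with a symbol passed with the block only, and none of their groups overlapped. NAI1 encodes a bHLH transcription factor required for ER bodies, compartments that hold defence enzymes. It read 148, 156 and 122 units against 81.1, 89.4 and 63.5 units (0.75 ± 0.12, adjusted p = 0.00457). DFR encodes dihydroflavonol reductase, an enzyme of anthocyanin synthesis. Its arrays gave 69.1, 52.1 and 57.4 units against 23.3, 28.0 and 39.3 units, and pair 1 was the largest of 1.11, 0.63 and 0.41. It was the only call among 7 genes of the flavonoid list (mean 0.72 ± 0.15, adjusted p = 0.0262). RALFL27 encodes a secreted signalling peptide of the RALF family. It stood at 94.8, 83.2 and 66.2 units against 51.3, 42.8 and 38.7 units and rose by 0.69 ± 0.10 (adjusted p = 0.00366). All 10 genes of the list of RALF and other signalling peptides were above 0 (median 0.17), but the other 9 did not pass, the nearest being RALFL24 at 0.33 (adjusted p = 0.129).

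Metabolic and redox enzymes made up most of the others. MSRB9, a reductase that repairs oxidised methionine, was bright and varied by pair, with 1033, 908 and 806 units against 483, 736 and 520.5 units (0.66 ± 0.12). Its replicate 2 pair differed by only 0.30. FaTA, a thioesterase that releases fatty acids at the end of their synthesis in plastids, measured 44.8, 60.3 and 59.1 units against 25.4, 34.6 and 35.9 units (0.56 ± 0.13, adjusted p = 0.0452). PMEAMT, a methyltransferase of phosphocholine synthesis, gave 666, 754 and 736 units against 448, 562 and 498 units (0.51 ± 0.09). Both had pairs close to each other. APS4 encodes an ATP sulfurylase, which starts sulfate assimilation. It was at 471, 434 and 346 units against 319, 303 and 253 units (0.49 ± 0.10), while APS3 of the same family was at -0.01 and did not pass. The metallothionein gene MT1C was the brightest call with a symbol, at 2414, 2238 and 2206 units against 1737, 1742 and 1738 units. Its rise of 0.39 ± 0.09 was also the smallest of the 15 (adjusted p = 0.0326). ZW9, for which no role is stated here, differed by 0.46 ± 0.10.

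**Figure D2:**
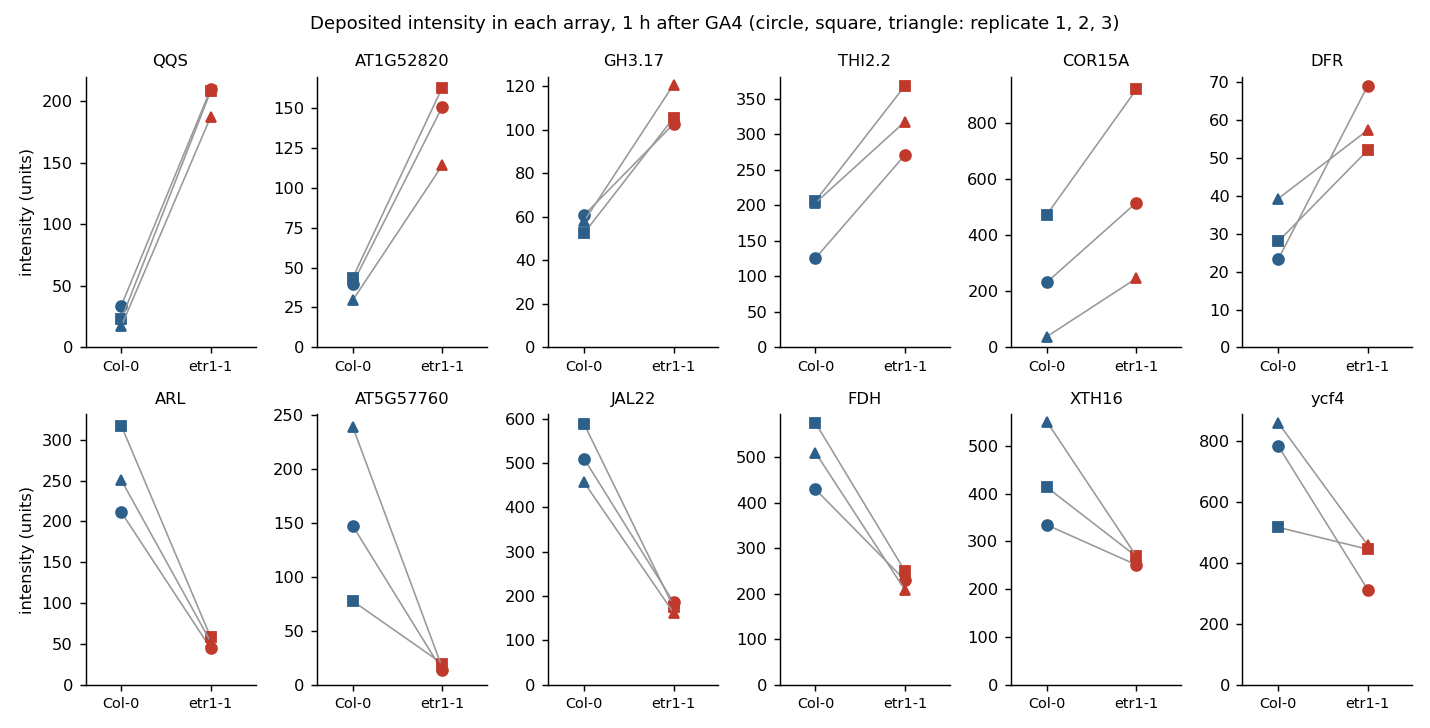
Deposited intensity (units, vertical axes starting at 0) of 12 genes in each of the 6 arrays, Col-0 in blue and etr1-1 in red, with a line joining the arrays that share a replicate number. QQS, AT1G52820, ARL and JAL22 show groups far apart, whereas COR15A shows overlapping groups with every line rising.

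On the lower side, ARL showed one of the largest falls. ARL, or ARGOS-LIKE, promotes cell expansion in growing organs and belongs to a family whose members are known to respond to ethylene. Its intensity was 44.5, 58.0 and 52.5 units in etr1-1 and 211, 317 and 251 units in Col-0. All etr1-1 arrays lay far below all Col-0 arrays. The difference was -2.01 ± 0.15 (4.04-fold lower, adjusted p = 5.99e-06, and 0.000349 without the block), with pairs of -1.91, -2.17 and -1.96. AT5G57760 fell further on average, by 2.29 ± 0.21 (4.88-fold), from 147, 77.7 and 239 units in Col-0 to 13.4, 19.7 and 16.1 units in etr1-1. Its Col-0 arrays spread widely while the etr1-1 arrays stayed low, and the pairs were -2.47, -1.39 and -2.99 (adjusted p = 6.01e-05, and 0.00152 without the block).

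In the lectin list, which was matched by symbol and so leaves out any lectin gene known by locus identifier only, both called genes were lower in etr1-1. JAL22 and JAL33 encode jacalin-related lectins, sugar-binding proteins linked to defence and to ER bodies. JAL22 measured 186, 176 and 162 units in etr1-1 and 510, 588 and 457 units in Col-0, each genotype within a narrow range. Its difference of -1.48 ± 0.09 had the smallest adjusted p of all named genes (1.51e-06, and 4.86e-05 without the block). JAL33 was brighter, at 774, 653 and 719 units against 931, 1169.6 and 1036 units, without overlap. Its fall was smaller, -0.53 ± 0.12, and its pairs ranged from -0.26 to -0.83 (adjusted p = 0.0387, and 0.166 without the block). The other 3 of the 5 genes tested in this list did not pass: JAL34 was at -0.15, JAL23 at 0.10 and EULS3 at 0.39.

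FDH encodes formate dehydrogenase, a mitochondrial enzyme that oxidises formate to carbon dioxide. It read 229.6, 249.6 and 208 units in etr1-1 and 429, 575 and 509.7 units in Col-0, with no overlap. The difference was -1.08 ± 0.13 (adjusted p = 0.000861, and 0.00913 without the block), so etr1-1 had 47.3% of the Col-0 level on this scale. AT4G17840 was the most even of the large falls: its arrays gave 73.0, 79.8 and 61.2 units against 202, 219 and 161 units. The pairs were -1.30, -1.29 and -1.20 around -1.26 ± 0.09 (adjusted p = 5.39e-06, and 0.00129 without the block). AT5G22580 (-1.42 ± 0.19), AT5G62280 (-1.29 ± 0.18), AT5G44580 (-1.10 ± 0.13), AT5G26260 (-0.95 ± 0.13), AT5G01210 (-0.94 ± 0.09), AT4G21650 (-0.93 ± 0.13) and AT3G60290 (-0.72 ± 0.12) complete the 12 named falls that passed in both fits. AT3G60290 was smaller than the 20 largest and is named for passing both ways.

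The other falls with a symbol passed with the block only. XTH16 encodes a xyloglucan endotransglucosylase/hydrolase, an enzyme that cuts and rejoins wall polymers. Its arrays read 251, 268 and 269 units against 334, 413 and 550.3 units. The etr1-1 arrays were nearly equal while Col-0 varied, which gave pairs of -0.39, -0.59 and -0.99 and a mean of -0.66 ± 0.13 (adjusted p = 0.0234, and 0.206 without the block). Of the 7 XTH genes tested it was the only call, and XTH33, next in size, was at -0.55 (adjusted p = 0.115). bZIP44, a transcription factor gene, was lower by nearly the same amount in each pair, -0.58, -0.60 and -0.64, at 61.5, 56.1 and 48.1 units against 99.8, 93.3 and 84.2 units. Its adjusted p was 0.00891 with the block and 0.0571 without. CHX20 encodes a cation/proton exchanger known from guard cells. It was dim, at 25.3, 15.2 and 17.4 units against 38.8, 29.2 and 40.8 units, and differed by -0.57 ± 0.12 (adjusted p = 0.0279). UGT85A4, a glycosyltransferase gene, measured 36.1, 34.5 and 36.1 units against 79.3, 45.4 and 53.1 units. It was the only call among 31 genes of its family tested, at -0.52 ± 0.12, and lay just inside the threshold (adjusted p = 0.0493). Just outside were AT1G62480 at -0.40 (adjusted p = 0.0521) and AT5G01870 at 0.59 (adjusted p = 0.053).

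The 3 smallest falls with a symbol were those of DRT100, UBC29 and GME. DRT100, a gene first found through resistance to DNA damage in bacteria, read 268, 229.9 and 313 units against 359, 305 and 507 units. Its groups overlapped and its pairs were -0.40, -0.38 and -0.67 (-0.49 ± 0.11). UBC29, a ubiquitin-conjugating enzyme gene, gave 123, 135 and 117 units against 155, 199 and 168 units (-0.42 ± 0.09). GME encodes GDP-mannose 3,5-epimerase, an enzyme of vitamin C and wall sugar synthesis. At 517, 452 and 482 units against 719, 534 and 631 units it had the smallest called fall, -0.36 ± 0.09 (adjusted p = 0.0484, and 0.435 without the block).

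The 40 largest differences with a gene name, 20 in each direction, reached from 0.80 to 2.44 among rises and from -0.85 to -2.29 among falls, and 34 of these genes have a locus identifier only. In 4 of the 40 the groups overlapped.

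The large rises known by locus identifier that passed with the block only were led by AT5G03350, at 638, 684 and 338 units in etr1-1 and 267, 261 and 95.4 units in Col-0. Replicate 3 was low in both genotypes and the groups did not overlap (1.40 ± 0.17, adjusted p = 0.000863, and 0.148 without the block). AT1G70880 (1.40 ± 0.23), AT1G65500 (1.31 ± 0.17), AT5G38910 (1.20 ± 0.22), AT1G14960 (1.17 ± 0.17) and AT2G38870 (1.03 ± 0.15) were all more than 2-fold higher. AT5G66590 (0.97 ± 0.13), AT1G52000 (0.90 ± 0.20), AT4G26790 (0.86 ± 0.19), AT4G11190 (0.84 ± 0.14), AT2G43620 (0.84 ± 0.18) and AT5G47980 (0.80 ± 0.16) were less so, and the groups of the last 2 overlapped. AT5G38910, AT4G11190 and AT5G47980 were not called after water.

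Among falls of the same kind, AT2G39980 measured 25.7, 24.0 and 4.9 units against 58.1, 97.5 and 82.7 units, without overlap (-1.52 ± 0.22, adjusted p = 0.00237, and 0.0607 without the block). AT5G22460 (-1.10 ± 0.22), AT5G40590 (-1.05 ± 0.22) and AT1G52100 (-1.03 ± 0.20) were also more than 2-fold lower, all at levels of at most 100.6 units. AT1G24530 (-0.95 ± 0.19), AT3G54400 (-0.87 ± 0.14) and AT5G18470 (-0.85 ± 0.19) were less so. None of these groups overlapped, and AT5G22460, AT1G24530 and AT5G18470 were not called after water.

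Replicate pairs did not contribute alike to the 40. The largest of the 3 pair differences came from pair 3 in 13 of the 20 rises and 11 of the 20 falls, and from pair 2 in 1 rise and 6 falls. Over all 299 called probe sets the median absolute difference was 0.66, 0.57 and 0.67 in pairs 1 to 3. Pair 3 belongs to the array set whose titles begin with DV001, and pairs 1 and 2 to DV002. Among genes with a wide spread, AT3G16670 fell by 0.74 in pair 1 and by 2.56 in pair 3, where its Col-0 array stood at 419 units against 108 and 147 units in the other two. AT2G16005 had its largest fall in pair 2 (-1.22, -2.36 and -1.17), where Col-0 read 295 units against 113 and 89.3 units.

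**Figure D3:**
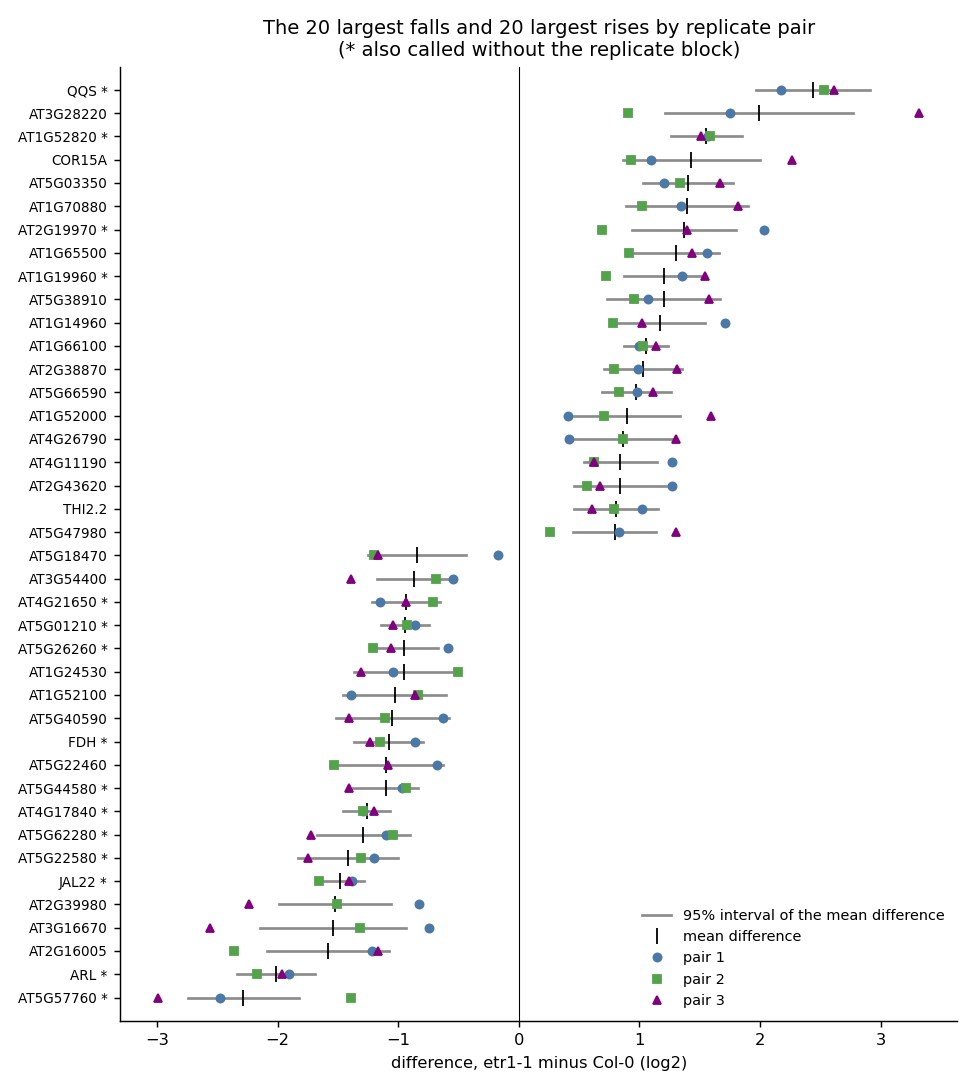
Difference between the genotypes (etr1-1 minus Col-0, log2, horizontal axis) in each of the 3 replicate pairs for the 20 largest falls and 20 largest rises with a gene name, with the mean as a black tick and its 95% interval as a grey bar. All pairs lie on the same side of 0 for each gene, which was a condition of the choice. Their spread differs from narrow (AT1G52820, AT4G17840) to wide (AT3G28220, AT3G16670).

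The calls were also fitted with each replicate left out, which leaves 2 pairs and fewer degrees of freedom. Of the 28 genes with a symbol, 4 passed in all 3 of these fits (QQS, ARL, JAL22 and FDH), 3 passed in 2, 6 in 1 and 15 in none, and all kept their sign. COR15A missed the threshold only without replicate 2 (1.68, adjusted p = 0.0525) and was at 1.02 without replicate 3 (adjusted p = 0.0478). GH3.17 missed it only without replicate 3 (0.73, adjusted p = 0.0551) and NAI1 only without replicate 2 (0.77, adjusted p = 0.0589). JAL33 passed only without replicate 1 (-0.67, adjusted p = 0.0213), MSRB9 and ycf4 only without replicate 2 (0.84 and -1.08), and psbE and RALFL27 only without replicate 3 (-0.80 and 0.74). THI2.2 passed only without replicate 2 (0.81, adjusted p = 0.0481). UGT85A4 shrank most in proportion, from -0.52 to -0.34 without replicate 1 (adjusted p = 0.353).

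Few genes of the hormone pathways themselves were tested by name, and few of those were called. Of 23 listed ethylene synthesis genes and 21 listed genes of gibberellin synthesis and inactivation, none was tested by name. Genes not tested by name are not covered by these counts. Of 20 listed genes for ethylene receptors and signalling, 4 were tested by name, with no receptor among them, and none passed. EIN3, the main transcription factor of the response, was at -0.06, and ETP2, an F-box protein that targets EIN2, at 0.02. RTE1, which promotes signalling by the ETR1 receptor, measured 50.2, 38.0 and 58.7 units against 72.4, 61.4 and 62.1 units. Its groups did not overlap, but the difference of -0.33 ± 0.12 did not pass (adjusted p = 0.201), and its relative RTH was at 0.25. The list of ethylene-induced genes held 4 tested genes, of which ARL was lower and PDF1.4 higher, with a median of -0.35. Of 74 listed ERF and AP2 genes, 4 were tested by name and none passed (median 0.06).

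Of 16 listed genes for gibberellin receptors and DELLA signalling, 6 were tested by name and none passed either. The receptor gene GID1A read 103, 89.9 and 85.1 units against 102, 87.5 and 76.2 units (0.06 ± 0.15), and GID1B 40.3, 46.8 and 33.1 units against 31.9, 44.7 and 24.1 units (0.19 ± 0.13). Their groups overlapped. GID1C was at -0.05, and SLY1, the F-box protein that marks DELLA proteins for breakdown, at 0.03. SPY and SEC, which modify DELLA proteins, were at -0.06 and -0.18, so the 6 genes lay between -0.18 and 0.19. Of growth-related genes, none of 15 expansins passed (median -0.03, from EXPA9 at -0.33 to EXPB1 at 0.41). EXPA8, an expansin gene, read 73.0, 47.2 and 136 units against 87.0, 58.5 and 114 units, with etr1-1 lower in pairs 1 and 2 and higher in pair 3. Its difference was -0.07 ± 0.12 after GA4 and -0.54 ± 0.12 after water, where it passed (adjusted p = 0.0348), and the test of the change between sprays did not pass (unadjusted p = 0.0133, adjusted p = 1). None of 12 cell cycle and histone genes (median -0.0018) and none of 11 wall enzyme genes passed.

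Over all 50 lists, 32 had 3 or more genes tested, and 16 genes in 13 lists were called. Of 7 early auxin genes GH3.17 was the only call, and GH3.3 (-0.21), WES1 (0.06) and IAA29 (0.07) did not pass. Among 18 starch and sugar genes QQS alone passed (median -0.02). SWEET16, a vacuolar sugar transporter gene, was next at 0.35 (adjusted p = 0.152). None of 13 cytochrome P450 genes passed, although CYP71B22 was at -0.99 (adjusted p = 0.0557). The 5 WRKY genes tested were also in the salicylic acid and defence list. None of 11 glutathione transferases (median 0.16), 8 aldehyde dehydrogenases (0.11), these 5 WRKY genes (0.16) or 4 touch and wounding genes (0.23) was called. These counts compare with 81 higher and 66 lower among the 8682 named genes, of which 50.4% lay above 0.

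Transcripts encoded in the plastid genome were mostly lower in etr1-1, but unevenly between replicates. Of 69 such genes tested, 64 were below 0 with a median of -0.49, and 2 passed, with none higher. psbE encodes a subunit of cytochrome b559 in photosystem II. It read 479, 412 and 463 units against 938, 655 and 507 units (-0.57 ± 0.13, adjusted p = 0.0404, and 0.437 without the block). The product of ycf4 is needed to assemble photosystem I. Its arrays gave 312, 444 and 458 units against 783, 516 and 859 units, with pairs of -1.28, -0.21 and -0.89 (mean -0.79 ± 0.18, adjusted p = 0.0362, and 0.244 without the block). Several genes with larger differences did not pass, among them psaA at -1.10 (adjusted p = 0.107) and ndhH at -1.09 (adjusted p = 0.0798).

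The median over the 69 plastid genes was -1.06 in pair 1, -0.03 in pair 2 and -0.37 in pair 3. The shift was largest in pair 1, and without replicate 1 the median of the list was -0.17, without replicate 2 it was -0.72 and without replicate 3 -0.52. After water the same pairs gave -0.64, -0.02 and -0.45, with 66, 37 and 57 of the 69 genes below 0. At 0 h the single pair of arrays had a median of -0.0065, at 30 min after GA4 -0.25 and at 3 h -0.44. The median level of these genes was 8.92, 9.23 and 9.16 (log2) in etr1-1 and 9.97, 9.39 and 9.71 in Col-0 after GA4. The highest of these, Col-0 replicate 1, was the array with the GAPDH ratio of 1.16. Col-0 replicate 1 after water also had a plastid median of 9.97, with a GAPDH ratio of 0.50 and an actin ratio of 2.86. Both arrays had higher GAPDH and actin ratios than any other Col-0 array of the series. The ubiquitin ratio of the water array was 1.33, within the range of the other Col-0 arrays. The part of RNA quality in the plastid shift was not tested. The 12 nuclear-encoded photosynthesis genes had a median of 0.11 and no call. In whole plants a smaller share of green tissue and less plastid RNA per cell cannot be told apart.

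**Figure D4:**
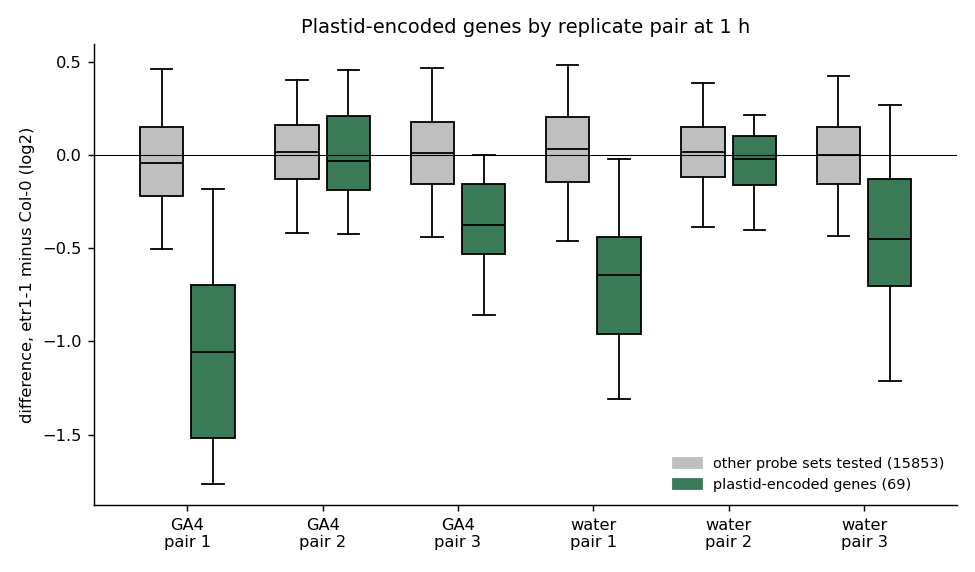
Distribution of the differences between the genotypes (etr1-1 minus Col-0, log2) for the 69 plastid-encoded genes (green) and the other 15853 probe sets tested (grey) in each replicate pair at 1 h after GA4 and after water, with boxes from the lower to the upper quartile, a line at the median and whiskers from the 5th to the 95th percentile. The green boxes lie below 0 in pairs 1 and 3 after both sprays and straddle 0 in pair 2.

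Next, the same probe sets were compared at 1 h after water. Both comparisons came from 1 fit, with a shared estimate of the spread and a shared replicate block. Their calls are therefore not independent. The water groups held 6 arrays not shared with the GA4 comparison. There 225 probe sets were called, 77 higher and 148 lower (1.41%). Of the 299 called after GA4, 146 were also called after water in the same direction (54 higher and 92 lower), which is 48.8% of the GA4 calls and 64.9% of the water calls. None was called in the opposite direction, and 297 of the 299 had the same sign after water, against 68.3% of all tested probe sets. The median size of the 299, which were chosen on the GA4 arrays, was 0.63 after GA4 and 0.50 after water. For the probe sets chosen by the water calls it was 0.72 after water and 0.61 after GA4, so each set was larger in the arrays it was chosen on. Of the 145 higher probe sets 123 had the larger difference after GA4, and of the 154 lower ones 90.

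Among the 20 largest rises 14 were also called after water, and among the 20 largest falls 17. ARL differed by -2.10 ± 0.15 after water, JAL22 by -1.63 ± 0.09, AT5G57760 by -2.63 ± 0.21, FDH by -0.84 ± 0.13 and AT1G52820 by 1.66 ± 0.14. All 5 differed alike after GA4, and in none did the change between sprays pass its test. Genes called only after GA4 include COR15A (0.78 ± 0.27 after water, adjusted p = 0.238), THI2.2 (0.30 ± 0.16, adjusted p = 0.544), DFR (0.31 ± 0.15), MSRB9 (0.22 ± 0.12), RALFL27 (0.37 ± 0.10) and GH3.17 (0.46 ± 0.11, adjusted p = 0.0648). Their means were all above 0 after water too, although COR15A was at -0.14 in pair 1 and THI2.2 at -0.25 in pair 2. In the direct test no probe set passed for a genotype difference that changed between the sprays (0 of 15922 at an adjusted p under 0.05 by limma, smallest adjusted p = 1, 335 at an unadjusted p under 0.05, 2.10%). Of the 299 called probe sets, 36 had an unadjusted p under 0.05 in that test. They were chosen by their difference after GA4, which is itself part of the tested change. That choice alone can raise this share, so the count says nothing on GA4. For 282 of the 299 the 95% interval of the change between sprays lay within 2-fold either way.

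The named genes with the smallest unadjusted p in that test did not pass, and are given as values. AT2G19970 differed by 1.37 ± 0.20 after GA4 and 0.47 ± 0.20 after water (change 0.90 ± 0.28, unadjusted p = 0.00671). It read 85.7, 55.8 and 59.5 units in etr1-1 and 8.9, 28.4 and 12.7 units in Col-0 after GA4, without overlap. AT2G15870, AT1G55930, AT5G26010 and AT1G47480 had changes of 0.79, 0.65, 0.48 and 0.52. On the other side AT4G31330 went from 0.46 after water to -0.51 after GA4 (change -0.97 ± 0.19, unadjusted p = 0.000178), followed by AT1G06790, AT5G07860, AT4G38050 and AT1G26410 with changes of -0.82, -0.60, -0.60 and -0.96. Within each genotype no probe set passed for GA4 against water (limma, 322 in Col-0 and 763 in etr1-1 at an unadjusted p under 0.05).

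**Figure D5:**
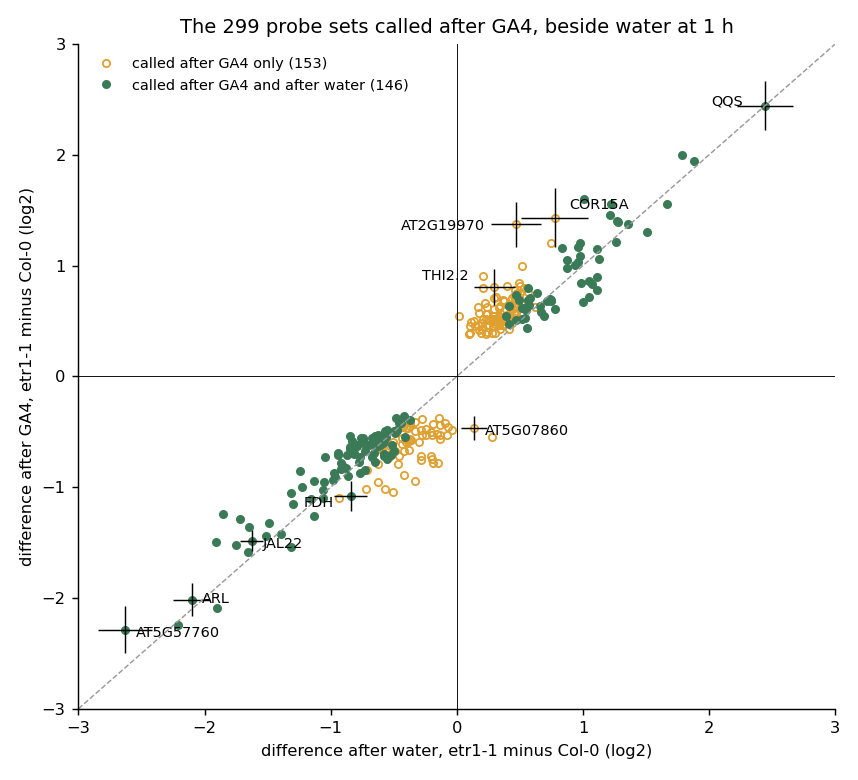
Difference between the genotypes (etr1-1 minus Col-0, log2) at 1 h after GA4 (vertical axis) against 1 h after water (horizontal axis) for the 299 probe sets called after GA4, filled where also called after water (146) and open where not (153), with standard errors for the labelled genes. All but 2 lie on the same side of 0 after both sprays, and 213 of the 299 lie farther from 0 after GA4, on whose arrays they were chosen, than after water.

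The single arrays at other times were compared by sign, without a test. Of the 299 probe sets, 279 had the same sign at 0 h after water, 282 at 30 min after GA4 and 293 at 3 h after GA4, and 262 (87.6%) at all 3 times, against 27.7% of all tested probe sets. QQS differed by 2.02, 2.90 and 1.67 at 0 h, 30 min and 3 h. ARL differed by -2.01, -1.79 and -1.32 and JAL22 by -1.69, -1.48 and -1.50. FDH was at -1.53, -1.20 and -1.01 and COR15A at 1.40, 1.93 and 2.42 at the same times. All 5 genes thus kept their direction at these 3 times. Of the 40 largest differences 39 kept their sign at all 3 times, the exception being AT2G38870, which was at 0.84, 1.13 and -0.08.

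Called genes were found on all 5 nuclear chromosomes. Chromosome 1 had 25 higher and 8 lower of 2238 named genes tested, and chromosome 5 had 17 higher and 25 lower of 2051. The share called ran from 1.47% on chromosome 1 to 2.05% on chromosome 5, and 2 of the 69 plastid-encoded genes were called (2.9%). Among the 50 genes on each side of ETR1 in gene order, 23 were tested by name and 1 was called, AT1G66100, at 1.05 ± 0.09. It measured 1204, 804 and 987 units against 596, 385 and 441 units, without overlap. Neighbouring called genes were rare: AT1G52800 and AT1G52820, and AT1G24420 (0.66) and AT1G24440 (0.57), were higher together, while AT2G39400 was lower (-0.70) and AT2G39420 higher (0.60 ± 0.10).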

How the data were processed

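RNA from whole plants was labelled with biotin and hybridised to Affymetrix ATH1 arrays, per the labels' protocols. The authors deposited 1 linear intensity for each probe set; which software produced it is not given in these sources. They had been scaled to a common mean before deposit. Precision is limited by how many arrays there are.

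Values entered as log2(value + 16). Of 22810 probe sets, 64 controls were left out, and those with a mean below the 30th percentile were filtered, which left 15922. Of the 22746 others, 13513 name 1 gene, 503 several and 8730 are unlisted in the platform table. Names were updated through Entrez identifiers to RefSeq TAIR10.1 (13436 matched). Probe sets with several genes name none, and no coordinates are used.

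A single model (limma 3.58.1 in R 4.3.3, lmFit and eBayes with an intensity trend) took the 12 arrays at 1 h, with 4 group terms and the replicate number as a block, and p-values were adjusted by Benjamini and Hochberg over all tested probe sets (threshold 0.05). The comparison is defined by pairs of equal replicate number, which come from the labels. Deviations from the group means correlated at 0.13 to 0.70 between arrays of the same number (18 pairs) and at -0.52 to 0.19 between other numbers (36 pairs).

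The text names the 20 largest rises and 20 largest falls with the same sign in all 3 pairs, up to 4 called members of each gene list, a fixed set of 11 genes (GASA9 is not named in the tables used here), and, for the change between sprays, the 5 with the smallest p on each side. Members, lists and tests were chosen with earlier results of these data known. List patterns that also took unrelated genes were corrected after the gene names were seen. In lists, each gene is read by its brightest probe set. Root, flower and seed, leaf and guard cell, and photosynthesis lists served as markers; by name, 3, 1, 0 and 12 genes of these were tested. The planned search of promoters for motifs was not run. The alternatives tried were no block, the array set as a block, an offset of 1, quantile normalization, no filter or one at the 50th percentile, no trend, an adjusted p of 0.10, fewer arrays, and leaving out each replicate.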

Additional observations from a re-analysis of the deposited data

Results flagged for a closer look

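Among the 299 probe sets called after GA4, 2 had a difference of one sign in all 3 pairs after GA4 and of the opposite sign in all 3 pairs after water. AT5G07860 was lower in etr1-1 after GA4 (-0.46 ± 0.11) and differed by 0.14 ± 0.11 after water. The change between sprays was -0.60 ± 0.15 (limma, unadjusted p = 0.00121, adjusted p = 1). A probe set with no entry in the gene table differed by -0.54 ± 0.11 after GA4 and 0.28 ± 0.11 after water, a change of -0.82 ± 0.15 (limma, unadjusted p = 0.000103, adjusted p = 1). Neither change passed the test over all probe sets, and the values after water alone did not pass either.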

How the results depend on the processing

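The estimates with and without the replicate block are identical, so the pairing alters only the spread. With no replicate block 10 probe sets were higher and 22 lower, and 25 of the 32 were also called after water. With the array set as the block the counts were 65, 70 and 61, in the same order. With no filter, where 22746 probe sets were tested, they were 54, 70 and 70. At an adjusted p under 0.10 they were 273, 309 and 223. Array set DV002 alone is the same fit as leaving out replicate 3 (34, 47 and 43). Leaving out 1 replicate at a time gave 34 to 68 higher, 47 to 72 lower and 43 to 74 called after both sprays; each such fit has 3 residual degrees of freedom in place of 6. The other settings moved the counts by less than 1.5 times. With only the 6 arrays of the comparison 286 probe sets were called, of which 226 were among the 299. That fit holds no water arrays and could not test the change between sprays. No other setting called such a change. The overlap with water and the plastid medians were added after seeing the data.

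All called named genes kept their direction in every setting run. Passing was followed for 64 of the 299 called probe sets, 1 of them without a gene name. AT2G21045 and AT3G60290 were not among the 64. The number that passed was 16 without the block, 33 with no filter and 39 with the array set as the block. It was 34, 34 and 25 without replicates 1, 2 and 3. QQS, AT1G52820, AT1G19960, AT5G01210, FDH, AT5G44580, AT4G17840, JAL22, ARL and AT5G57760 passed in all settings. The uncalled EXPA8 (-0.07) ranged from -0.22 to 0.010 with 1 replicate left out, and changed sign without replicate 2. An offset of 1 moved 5 dim genes by over 1.5 times: AT2G19970 to 2.07, AT4G21650 to -1.48, AT5G22460 to -1.73, AT2G39980 to -2.32 and CHX20 to -0.89. Without replicate 3 AT1G52000 was at 0.56, against 0.90. Probe sets dim in both genotypes have only a bound on their difference, and detection calls are not used here.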
